A study of Homo sapiens with 24 samples.

Results

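The cancer-testis antigens are proteins made in the germ line, chiefly in the testis, and again in many tumours and tumour cell lines. Their genes are present in families of near-identical copies, most of them on the X chromosome. The genes described here are those of the GAGE, SSX, PAGE, XAGE, MAGEA, MAGEB, MAGEC, CT45 and CT47 families, in K562 cells in which the erythroid transcription factor GATA1 or an element near it was repressed. Members were the rows of the deposited count table whose symbol began with 1 of those 9 names and whose mean level over all 24 libraries was at least 0.5 CPM (read counts scaled to a common library total). Of 21925 gene entries, 96 matched and 74 reached that level. Rows with the same count in every library were taken as 1, which left 63 distinct members. These were 17 of GAGE, 11 of SSX, 5 of PAGE, 1 of XAGE, 15 of MAGEA, 5 of MAGEB, 2 of MAGEC, 6 of CT45 and 1 of CT47. CT47A6 stood just inside the limit at 0.505 CPM, and CT47A10 and other copies of CT47 stood just outside at 0.44 CPM. PRAME, another antigen of the same kind, was not analysed here.

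In most adult tissues these genes are kept silent by methylation of CpG dinucleotides in their promoters, and they are read again where that methylation is lost. MAGE proteins bind RING-type ubiquitin ligases and steer them to new substrates, whereas SSX proteins are nuclear repressors that lack a DNA-binding domain of their own. GAGE, PAGE and XAGE proteins are small, acidic and largely unfolded, and for most of them no activity is settled.

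K562 is a human chronic myeloid leukaemia line with erythroid features. All groups, controls included, carried a catalytically dead Cas9 joined to a KRAB repressor domain under a doxycycline-inducible promoter, and all received doxycycline for 24 hours after transduction with 1 single guide RNA (sgRNA). Of the 8 sgRNAs, 2 were aimed at the GATA1 transcription start site (GATA1TSS), 2 at eHDAC6, a putative enhancer of GATA1, and 4 were non-targeting controls (NC). Each sgRNA had 3 biological replicates, giving 6, 6 and 12 strand-specific polyA RNA libraries made from 10000 cells each. The totals ran from 4290343 to 23205811 counts, with a median of 13479251, and GATA1TSS-Guide2 replicate 2 was the shallowest.

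GATA1 itself was measured first, as a check of the labels. Its level was 363 ± 29.6 CPM (mean ± SD, n = 12) with NC, 117 ± 18.0 CPM (n = 3) with GATA1TSS-Guide1, 53.1 ± 10.3 CPM (n = 3) with GATA1TSS-Guide2, 247 ± 6.24 CPM (n = 3) with eHDAC6-Guide1 and 259 ± 6.22 CPM (n = 3) with eHDAC6-Guide2. Every targeted library lay below every NC library. Of the erythroid markers, 8 of 9 were listed, all at 1 CPM or more, and their summed level was 8037 to 14528 CPM with NC, 6243 to 10592 CPM with GATA1TSS and 6631 to 9373 CPM with eHDAC6. Of the germ cell markers, 6 of 8 were listed, only SYCP3 reached 1 CPM, and DAZL, PRM1 and PRM2 had no count in any library. Their summed level was 15.6 to 25.1 CPM with NC, 14.8 to 17.7 CPM with GATA1TSS and 14.9 to 17.4 CPM with eHDAC6. The summed level of the myeloid markers was 65.4 to 90.6 CPM with NC and 71.4 to 121 CPM with GATA1TSS. For the fibroblast and epithelial markers it was 58.7 to 100.5 CPM and 64.3 to 77.2 CPM, and the part of these lists in the results was not tested.

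The control libraries did not form 1 group. On the first principal component of the 12 NC libraries, computed on the 2000 most variable genes with all matched rows left out (18.2% of the variance), 4 libraries, namely replicates 2 and 3 of both NC-Guide3 and NC-Guide4, lay on 1 side and the remaining 8 on the opposite side. The split runs through both of these sgRNAs, and the labels name no batch or date. The summed erythroid markers were at 8037 to 9146 CPM in the 4 and the summed germ cell markers at 15.6 to 17.2 CPM, both the lower end of the NC range, and their part in the results was not tested. The results are therefore given against all 12 NC libraries and also against the 4 and against the 8. Each NC sgRNA in a fit had equal weight. In the fit with the 8, NC-Guide3 and NC-Guide4 had 1 library each. The split was found in the data and is not a group of the study.

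Promoters are shown here because these genes are read or kept silent through their promoter CpG dinucleotides. The window runs from 250 bases before the start site to 50 after it, from RefSeq (GRCh38.p14), 5′ to 3′ on the gene's strand, with each CpG in capitals. GAGE2A, of the GAGE array (chrX:49589246-49589545, plus strand), and GAGE10 (chrX:49303396-49303695, plus strand) stand for GAGE. GAGE10 is the GAGE copy that differs most from GAGE2A among those compared. The GAGE sum fell with eHDAC6 against all 12 NC libraries and not against the 4. CT45A10 (chrX:135893395-135893694, minus strand) stands for the family with the lowest levels relative to NC. MAGEC1 (chrX:141903644-141903943, plus strand) and MAGEC2 (chrX:142205241-142205540, minus strand) belong to the family whose sum had the smallest adjusted p.
GAGE2A: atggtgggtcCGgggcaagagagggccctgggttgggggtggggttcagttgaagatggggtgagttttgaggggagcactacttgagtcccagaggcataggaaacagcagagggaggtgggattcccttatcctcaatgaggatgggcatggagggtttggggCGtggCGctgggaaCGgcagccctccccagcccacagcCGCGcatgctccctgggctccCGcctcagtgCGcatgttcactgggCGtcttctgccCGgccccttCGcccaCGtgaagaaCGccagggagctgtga
GAGE10: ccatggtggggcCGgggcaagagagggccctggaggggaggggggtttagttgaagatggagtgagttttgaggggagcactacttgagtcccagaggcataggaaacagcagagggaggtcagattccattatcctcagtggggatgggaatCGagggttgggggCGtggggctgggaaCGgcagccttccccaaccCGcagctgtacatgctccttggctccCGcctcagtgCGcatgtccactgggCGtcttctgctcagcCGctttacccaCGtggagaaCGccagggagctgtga
CT45A10: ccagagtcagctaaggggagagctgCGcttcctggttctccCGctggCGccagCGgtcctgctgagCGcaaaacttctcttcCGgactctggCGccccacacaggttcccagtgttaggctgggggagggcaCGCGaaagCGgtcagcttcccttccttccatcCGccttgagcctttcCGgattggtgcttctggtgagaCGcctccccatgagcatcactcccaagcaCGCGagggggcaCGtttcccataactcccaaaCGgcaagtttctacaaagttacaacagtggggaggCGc
MAGEC1: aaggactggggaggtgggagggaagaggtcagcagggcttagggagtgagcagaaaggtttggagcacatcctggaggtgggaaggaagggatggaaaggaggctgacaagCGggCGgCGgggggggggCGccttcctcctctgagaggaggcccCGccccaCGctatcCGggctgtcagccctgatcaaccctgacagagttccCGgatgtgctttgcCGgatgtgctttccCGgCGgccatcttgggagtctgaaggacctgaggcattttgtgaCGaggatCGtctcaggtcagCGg
MAGEC2: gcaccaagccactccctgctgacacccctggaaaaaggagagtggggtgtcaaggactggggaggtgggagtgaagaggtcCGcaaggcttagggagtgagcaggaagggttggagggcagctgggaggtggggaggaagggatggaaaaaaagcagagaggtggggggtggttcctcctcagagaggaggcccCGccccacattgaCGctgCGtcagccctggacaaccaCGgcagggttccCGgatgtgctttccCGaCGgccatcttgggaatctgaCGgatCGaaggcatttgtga

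These 5 windows hold 13, 11, 18, 14 and 10 CpG dinucleotides, in that order. The GAGE2A window was identical to that of GAGE12J, differed from GAGE1 by 14 edits and from GAGE10 by 34. MAGEA3 and MAGEA6 also shared 1 identical window, while MAGEC1 and MAGEC2 differed by 135 edits over 300 bases. Of the 74 rows, 44 had a promoter in the table, 57 windows in all, and the median CpG number was 13, against 14 over all 35116 windows. The GATA motif, searched as AGATAA or TGATAA on both strands, was present in 3.51% of the members' windows and in 16.3% of all. The ETS motif, searched as CCGGAA on both strands, was present in 5.26% and 17.2%, and CT45A10 held it.

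Reads from near-identical copies cannot be assigned to 1 of them, and the count table showed this directly. GAGE8 equalled the sum of GAGE2A and GAGE2E to within 1 count in every library, and in 20 of 24 libraries exactly. CT45A4 equalled CT45A6 plus CT45A3 in 24 of 24 libraries, and CT45A1 equalled CT45A4 plus CT45A7 to within 1 count. Rows of MAGEA9 and MAGEA9B, of SSX4 and SSX4B, and of GAGE12F and GAGE12G also differed by at most 1 count in any library. Some rows of GAGE, CT45, MAGEA and SSX therefore hold the same reads more than once. The number of rows called in these families is thus not a number of independent genes. The sums of these families also count such reads more than once.

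The extent of shared sequence was measured as the share of the 50-base words in a gene's GENCODE 29 transcripts that occurred in no other gene, for the 60 of 74 rows with a match. The median was 3.9% in GAGE and 3.9% in CT45, 23.7% for XAGE1B, 87.8% in PAGE, 98.8% in MAGEB and 99.8% in MAGEC. Within SSX the share was 0% for SSX4 and 11.8% for SSX2B but 87.2% for SSX3 and 91.2% for SSX1. Within MAGEA it was 6.0% for MAGEA9 and 43.5% for MAGEA3 but 99.3% for MAGEA1. Within PAGE it was 61.4% for PAGE2 and 47.7% for PAGE2B but 100% for PAGE1 and PAGE4. In MAGEB and MAGEC it was 98.7% or more for every gene matched.

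**Figure D1:**
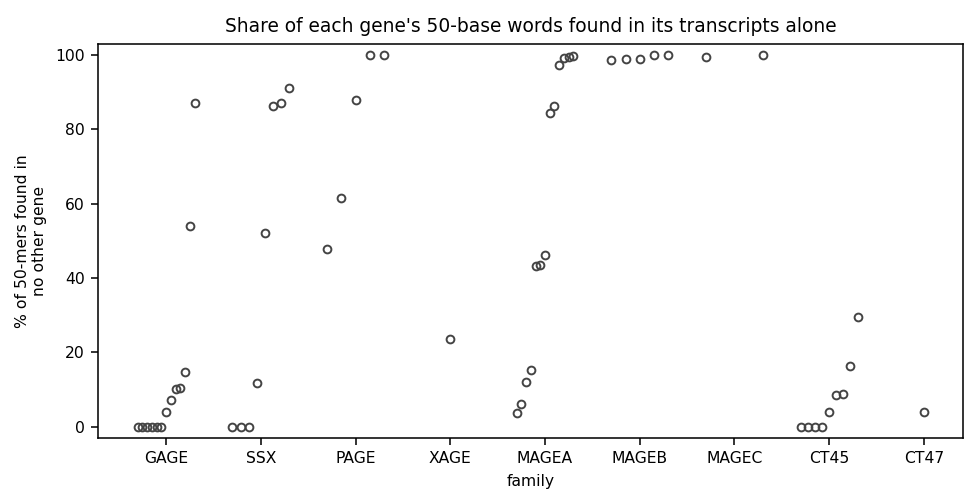
Share of the 50-base words (50-mers) of each gene, in percent, that no other gene's transcripts contain, by family; each circle is 1 gene with matching transcripts, and SSX2IP, MAGEA8-AS1 and the MAGEA10-MAGEA5 readthrough are left out. All CT45 genes lie at or below 29.4%, and both MAGEC genes lie at 99.6% or more.

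On the build of the deposited gene models (hg19), 73 of the 74 rows lie on the X chromosome. GAGE forms a cluster at X:49160125-49373139, CT45 lies at X:134847185-134975579 and MAGEC at X:140991642-141293076. GATA1 is at X:48644982-48652717, and the start of SSX3 (X:48205863-48216188, minus strand, 8 exons) is 0.429 Mb from the start of GATA1. The exception is SSX2IP, which matched by name alone and encodes a centrosomal protein that binds SSX2, at chromosome 1:85109390-85156240. Family sums, used because the family is the unit that reads can be assigned to, were made of the 60 distinct rows that are single family genes, without SSX2IP, the antisense row MAGEA8-AS1 and the readthrough row MAGEA10-MAGEA5. CPM values are not corrected for gene length, so levels are compared between libraries and not between genes or families.

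With GATA1TSS, 13 of the 63 distinct members were higher than with NC (20.6%, against 13.5% of the 13147 genes tested) and 11 were lower (17.5%, against 13.7%). A call means a Benjamini-Hochberg adjusted p below 0.05 over all genes tested, by edgeR's quasi-likelihood test. The members that rose were 4 of SSX, 1 of PAGE, 5 of MAGEA, 1 of MAGEB and both of MAGEC. Those that fell were 4 of GAGE, all 6 of CT45 and SSX2IP. The median log2 fold change of the members was 0.03, beside 0 for all genes.

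With eHDAC6, 9 members were higher (14.3%, against 15.8% of all genes) and 24 were lower (38.1%, against 15.3%). The 9 were 3 of SSX, 3 of MAGEA, 1 of MAGEB and both of MAGEC. The 24 were all 17 of GAGE, all 6 of CT45 and SSX2IP. Some GAGE and CT45 rows hold the same reads, so 38.1% is not a share of independent genes. The same holds for the 17.5% lower with GATA1TSS. The members' median log2 fold change was -0.03, beside -0.01 for all genes. DESeq2 gave 14 and 11 with GATA1TSS and 10 and 24 with eHDAC6. Both comparisons share the 12 NC libraries, so their likeness is not independent evidence.

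Against the 4 NC libraries that stood apart, these counts were much smaller. GATA1TSS then gave 4 higher and 1 lower (background 4.84% and 5.39%), and eHDAC6 gave 2 higher and 0 lower (background 0.899% and 0.587%), with 5 of the 63 at an unadjusted p below 0.05. Against the other 8 they were 18 higher and 24 lower with GATA1TSS (18.9% and 14.2%), and 12 higher and 24 lower with eHDAC6 (21.2% and 15.8%). SSX2IP, SSX3, SSX2B, MAGEC2 and MAGEA1 were called the same way against both sets with GATA1TSS, and SSX3 and MAGEC2 with eHDAC6. When membership of the 8 was a term of the model, the targeted libraries were coded with the 4. The term then rested on NC-Guide3 and NC-Guide4, the sgRNAs that the split runs through. In that fit no member was called higher in either comparison, SSX2IP was called lower with GATA1TSS, and none was called lower with eHDAC6. Counts were also summed per sgRNA, so that the error lies between sgRNAs. Then 3 members were higher and 0 lower with GATA1TSS, and 1 was higher and 0 lower with eHDAC6. The share of all genes called was not taken with the model term or the summed counts, so these counts have no background beside them.

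**Figure D2:**
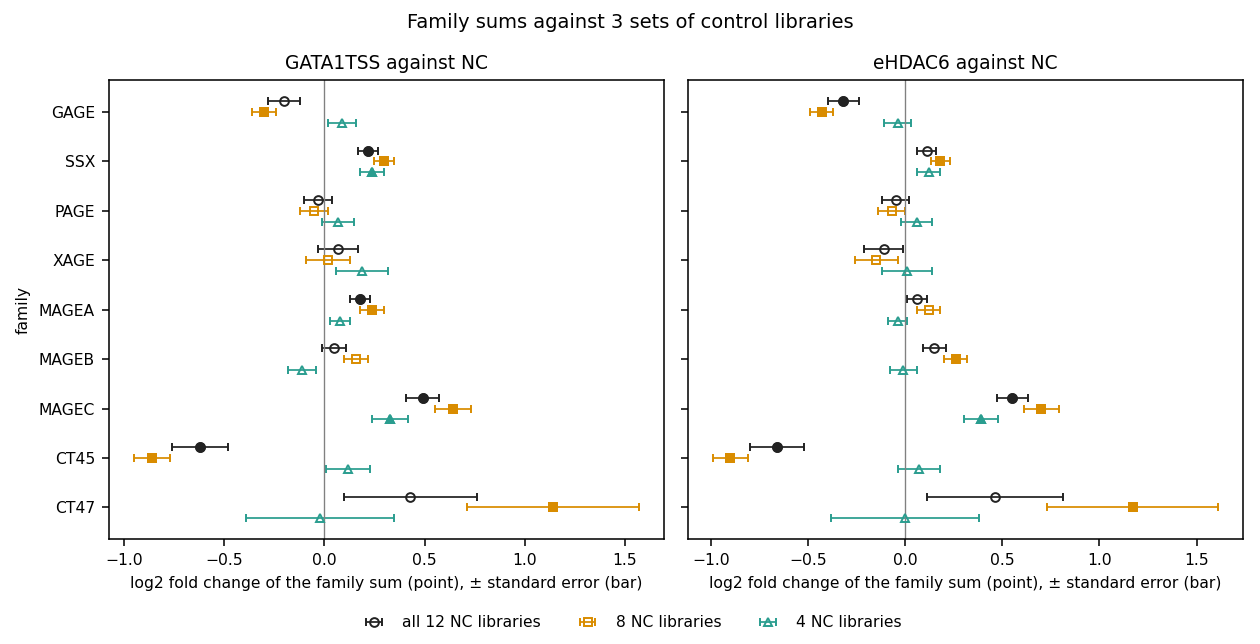
Log2 fold change of each family sum (points) with its standard error (bars) for GATA1TSS and eHDAC6, against all 12, the 8 and the 4 NC libraries; filled points passed the adjusted p threshold of 0.05. CT45 lies at -0.62 and -0.66 against all 12 and at 0.12 and 0.07 against the 4, whereas MAGEC stays above 0 against each set.

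The MAGEC sum had the smallest adjusted p of the 9 family sums in both comparisons with NC. MAGEC1 and MAGEC2 are type I MAGE proteins, and MAGEC2 is known to bind the ligase TRIM28. Their summed level was 31.2, 35.4 and 28.6 CPM in the 3 libraries of NC-Guide1, 27.7, 33.5 and 35.6 CPM in those of NC-Guide2, 29.7, 37.2 and 37.2 CPM in those of NC-Guide3 and 28.0, 34.9 and 38.6 CPM in those of NC-Guide4. It was 47.3, 41.5 and 46.0 CPM with GATA1TSS-Guide1 and 47.7, 43.2 and 52.7 CPM with GATA1TSS-Guide2. With eHDAC6-Guide1 it was 38.3, 36.8 and 53.6 CPM, and with eHDAC6-Guide2 52.5, 54.0 and 57.2 CPM.

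In this sum all 6 GATA1TSS libraries lay above all 12 NC libraries, and 4 of the 6 eHDAC6 libraries did. Taken alone, neither MAGEC1 nor MAGEC2 was separated from NC with GATA1TSS. The share of sums of genes that separate in this way was not taken. The sum rose by a log2 fold change of 0.49 (SE 0.08) with GATA1TSS (edgeR, adjusted p = 6.23e-05) and 0.55 (SE 0.08) with eHDAC6 (edgeR, adjusted p = 2.57e-05). Against the 4 NC libraries the values were 0.33 (edgeR, adjusted p = 0.0184) and 0.39 (edgeR, adjusted p = 0.0266). With the control split as a model term they were 0.25 and 0.31, both at an adjusted p of 0.184 by edgeR.

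The members of the pair behaved differently towards the control split. MAGEC1 was at 16.5 to 19.8 CPM in the 8 NC libraries and at 21.1 to 26.0 CPM in the 4, without overlap. It was at 22.4 to 30.4 CPM with GATA1TSS and at 21.0 to 36.3 CPM with eHDAC6, which overlaps the 4 and lies above the 8. Its log2 fold changes were 0.52 and 0.55 against all 12 (edgeR, adjusted p = 0.000156 and 0.000123), and 0.28 and 0.30 against the 4 (edgeR, adjusted p = 0.102 and 0.162).

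For MAGEC2 the 8 and the 4 overlapped, at 10.8 to 19.1 and 11.6 to 16.1 CPM. The GATA1TSS libraries were at 16.8, 17.3 and 16.4 CPM with Guide1 and 18.3, 20.8 and 22.5 CPM with Guide2, all above the 4. The eHDAC6 libraries were at 13.5, 15.7 and 23.1 CPM with Guide1 and 22.4, 24.9 and 20.9 CPM with Guide2, so that eHDAC6-Guide1 spanned the range from the NC level to that of Guide2. Its log2 fold changes were 0.45 with GATA1TSS and 0.55 with eHDAC6 against all 12 (edgeR, adjusted p = 0.00253 and 0.000451), and 0.44 and 0.54 against the 4 (edgeR, adjusted p = 0.0208 and 0.0217).

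Among the SSX genes, SSX3 had the smallest adjusted p. The SSX proteins carry a KRAB-like repressor domain, and SSX1, SSX2 and SSX4 are known as partners of SS18 in the fusions of synovial sarcoma. SSX3 was at 12.7 CPM in the lowest, 16.3 in the median and 18.8 in the highest NC library. It was at 19.1, 18.5 and 18.2 CPM with GATA1TSS-Guide1, at 32.0, 25.3 and 32.4 CPM with GATA1TSS-Guide2, at 23.7, 22.4 and 26.1 CPM with eHDAC6-Guide1 and at 25.1, 25.3 and 25.0 CPM with eHDAC6-Guide2.

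The eHDAC6 libraries all lay above every NC library, and GATA1TSS-Guide1 lay at the upper edge of NC. Of the 63 members, 1 showed this separation with eHDAC6, namely SSX3, beside 0.89% of all genes. With GATA1TSS 0 of the 63 showed it, beside 0.814% of all genes. The log2 fold changes of SSX3 were 0.55 (SE 0.08) with GATA1TSS and 0.60 (SE 0.08) with eHDAC6, both at an adjusted p of 5.02e-06 by edgeR. Tested against the 4 they were 0.47 and 0.52 (edgeR, adjusted p = 0.000738 and 0.00145). Without GATA1TSS-Guide2 the change with GATA1TSS was 0.20 (edgeR, adjusted p = 0.189), and without GATA1TSS-Guide1 it was 0.91. With counts summed per sgRNA the adjusted p by edgeR was 0.0523 and 0.0694, and with the split as a model term 0.0801 and 0.106.

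SSX3 also differed between the GATA1TSS sgRNAs, of which Guide2 left less GATA1. Guide2 was higher than Guide1 by 0.71 (SE 0.12) on the log2 scale (edgeR, adjusted p = 0.00135). SSX6, named after its values were seen, was at 4.89, 5.52 and 4.73 CPM with Guide1 and 7.53, 6.71 and 8.45 CPM with Guide2, a log2 difference of 0.61 (edgeR, adjusted p = 0.0254). These were the 2 members called between these sgRNAs, beside 3.48% of all genes. In each the libraries of Guide2 lay above those of Guide1. Of the 63 members, 9 showed this and 5 the reverse. The share of all genes was not taken, so these counts have no background beside them. They also include rows that share reads, such as SSX4 and SSX4B.

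SSX2B, whose row was identical to that of SSX2, was at 13.9 to 22.6 CPM in the 8 NC libraries and 22.8 to 28.3 CPM in the 4. It was at 24.4 to 35.6 CPM with GATA1TSS and at 22.4 to 30.8 CPM with eHDAC6. Its log2 fold changes were 0.47 and 0.31 against all 12 (edgeR, adjusted p = 0.000318 and 0.0133). Against the 4 they were 0.30 and 0.14 (edgeR, adjusted p = 0.0376 and 0.516). Without eHDAC6-Guide1 replicate 3 the eHDAC6 value against all 12 was 0.25 (edgeR, adjusted p = 0.0652).

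Of the other SSX genes, SSX4 and SSX5 rose with GATA1TSS by 0.28 and 0.38 (edgeR, adjusted p = 0.0498 and 0.0195) and SSX9 rose with eHDAC6 by 0.70 (edgeR, adjusted p = 0.038), and none of these 3 calls held against the 4 NC libraries. The call of SSX9 was lost without any 1 of 9 libraries, and that of SSX5 without replicate 3 of GATA1TSS-Guide1 or of GATA1TSS-Guide2. SSX4 and SSX5 were named after their values were seen. SSX4B, which shares nearly all reads with SSX4, stood at 0.28 and 0.03 with GATA1TSS and eHDAC6. It was called with neither (edgeR, adjusted p = 0.0504 and 0.877). SSX1 did not pass the test in either comparison, with means of 80.5 ± 8.03 CPM (n = 12) for NC, 84.3 ± 6.81 (n = 6) for GATA1TSS and 78.3 ± 5.24 (n = 6) for eHDAC6. The SSX sum rose with GATA1TSS by 0.22 (SE 0.05; edgeR, adjusted p = 0.00125) and by 0.24 against the 4 NC libraries (edgeR, adjusted p = 0.0109). Leaving out GATA1TSS-Guide2 took the change to 0.07 and below the threshold. With eHDAC6 the sum's change was 0.11 (edgeR, adjusted p = 0.104). SSX2IP, which is not an SSX gene, was at 113 to 192 CPM with NC, 94.7 to 117 CPM with GATA1TSS and 105 to 121 CPM with eHDAC6, and fell in both comparisons by 0.32 and 0.21 on the log2 scale (edgeR, adjusted p = 0.000192 and 0.00845). Against the 4 NC libraries only the fall with GATA1TSS passed the test, at -0.20 (edgeR, adjusted p = 0.0181).

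**Figure D3:**
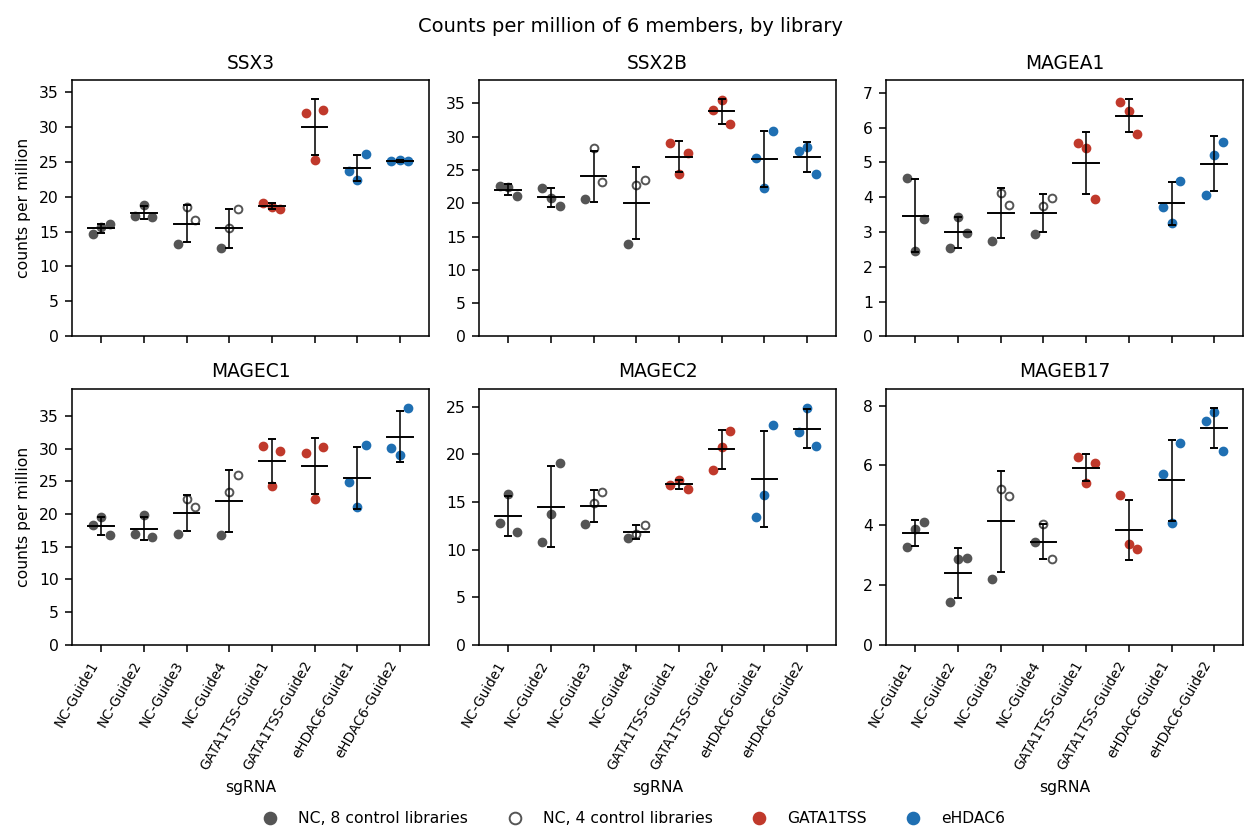
CPM of SSX3, SSX2B, MAGEA1, MAGEC1, MAGEC2 and MAGEB17 in each library (points, open for the 4 NC libraries that stand apart), with the mean and SD of each sgRNA (lines and bars). SSX3 lies at 25.0 to 25.3 CPM with eHDAC6-Guide2, above the highest NC library at 18.8 CPM.

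MAGEA1, the gene of the melanoma antigen for which the family is named, was the MAGEA member with the largest rise that passed the test. It was at 2.46 CPM in the lowest, 3.41 in the median and 4.55 in the highest NC library. The GATA1TSS libraries were at 5.56, 5.42 and 3.95 CPM with Guide1 and 6.73, 6.49 and 5.82 CPM with Guide2, and the eHDAC6 libraries at 3.72, 3.27 and 4.48 CPM with Guide1 and 4.08, 5.23 and 5.58 CPM with Guide2. Of the GATA1TSS libraries 5 of 6 lay above every NC library, while the eHDAC6 libraries overlapped NC.

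The log2 fold changes of MAGEA1 were 0.74 (SE 0.13) with GATA1TSS (edgeR, adjusted p = 0.000153) and 0.38 (SE 0.14) with eHDAC6 (edgeR, adjusted p = 0.0417). Tested against the 4 they were 0.52 (edgeR, adjusted p = 0.0333) and 0.16 (edgeR, adjusted p = 0.696). The call with eHDAC6 was lost without any 1 of 10 libraries, at log2 values of 0.31 to 0.39. The direct difference of eHDAC6 minus GATA1TSS was -0.36 (edgeR, adjusted p = 0.269).

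MAGEA3 and MAGEA6 encode near-identical proteins known to act with TRIM28. MAGEA3 was at 69.4 ± 6.72 CPM (n = 12) with NC, 81.3 ± 5.77 (n = 6) with GATA1TSS and 73.2 ± 5.95 (n = 6) with eHDAC6, and rose with GATA1TSS by 0.23 (edgeR, adjusted p = 0.00184). MAGEA12 rose with GATA1TSS by 0.15 (edgeR, adjusted p = 0.0282), and the value for MAGEA6 was 0.14 (edgeR, adjusted p = 0.07). Without GATA1TSS-Guide1 replicate 2, MAGEA12 was at 0.11 (edgeR, adjusted p = 0.122). MAGEA9, named after its values were seen and not separable from MAGEA9B, rose by 0.38 and 0.32 (edgeR, adjusted p = 0.00061 and 0.00344). None of these 4 passed the test against the 4 NC libraries.

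MAGEA11, a coregulator of the androgen receptor, had the largest fitted fold changes of the MAGEA family, 0.80 and 0.86, at a low level of 0.461 CPM with NC, and neither passed the test (edgeR, adjusted p = 0.0634 and 0.0512). The MAGEA sum was 346 ± 28.8 CPM (n = 12) with NC, 394 ± 26.4 (n = 6) with GATA1TSS and 361 ± 24.2 (n = 6) with eHDAC6. It rose with GATA1TSS by 0.18 (edgeR, adjusted p = 0.00465), and was 0.08 against the 4 NC libraries (edgeR, adjusted p = 0.395). The antisense row MAGEA8-AS1 was at -0.19 and -0.02 and the readthrough row MAGEA10-MAGEA5 at -0.12 and -0.19, with GATA1TSS and eHDAC6 in that order, and neither passed the test. The sources used here do not say whether counting used strand, so reads of the antisense row are uncertain.

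MAGEB17 was the MAGEB gene that passed the test in both comparisons with NC. Its level was 1.42 CPM in the lowest, 3.36 in the median and 5.23 in the highest NC library, 6.27, 5.42 and 6.08 CPM with GATA1TSS-Guide1 and 5.01, 3.35 and 3.20 CPM with GATA1TSS-Guide2. With eHDAC6-Guide1 it was 5.71, 4.07 and 6.75 CPM and with eHDAC6-Guide2 7.48, 7.80 and 6.49 CPM. The 3 libraries of GATA1TSS-Guide1 and of eHDAC6-Guide2 lay above every NC library, and those of GATA1TSS-Guide2 did not.

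The log2 fold changes of MAGEB17 were 0.51 (SE 0.17) with GATA1TSS (edgeR, adjusted p = 0.0217) and 0.90 (SE 0.16) with eHDAC6 (edgeR, adjusted p = 0.000195). Tested against the 4 they were 0.21 and 0.60 (edgeR, adjusted p = 0.515 and 0.075). MAGEB2 was at 38.3 CPM with NC, 39.5 with GATA1TSS and 42.0 with eHDAC6, MAGEB1 at 17.6, 17.3 and 17.4 CPM, MAGEB4 at 0.563, 0.477 and 0.543 CPM and MAGEB10 at 0.506, 0.523 and 0.620 CPM, and none passed the test. Without GATA1TSS-Guide1 replicate 1 or GATA1TSS-Guide2 replicate 1 the rise of MAGEB17 with GATA1TSS was 0.49 and 0.37 and no longer passed.

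The MAGEB sum differed between the GATA1TSS sgRNAs, in the direction opposite to SSX. It was 71.2 ± 5.44 CPM (n = 3) with Guide1 and 54.2 ± 4.70 CPM (n = 3) with Guide2, beside 54.2 to 75.4 CPM with NC. Guide2 was lower by a log2 difference of -0.38 (edgeR, adjusted p = 0.029), whereas the SSX sum was higher with Guide2 by 0.30 (edgeR, adjusted p = 0.0346). Of the MAGEB members, all 5 had a negative value between the sgRNAs, from -0.80 to -0.17, and none passed the test, the smallest adjusted p by edgeR being 0.052, for MAGEB2.

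CT45 showed the lowest values relative to NC. The CT45 genes lie in tandem on the long arm of the X chromosome, and their protein has been found bound to a protein phosphatase complex in ovarian cancer cells. The summed level was 55.8, 52.6 and 51.8 CPM in the libraries of NC-Guide1, 67.3, 62.5 and 53.5 CPM in those of NC-Guide2, 56.2, 30.0 and 23.1 CPM in those of NC-Guide3 and 43.1, 28.0 and 24.6 CPM in those of NC-Guide4. It was 28.1 ± 5.32 CPM (n = 3) with GATA1TSS-Guide1, 29.9 ± 2.25 CPM (n = 3) with GATA1TSS-Guide2, 29.6 ± 4.18 CPM (n = 3) with eHDAC6-Guide1 and 26.2 ± 2.61 CPM (n = 3) with eHDAC6-Guide2.

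All 12 targeted libraries, at 23.6 to 34.4 CPM, lay below the 8 NC libraries at 43.1 to 67.3 CPM, and they overlapped the 4 at 23.1 to 30.0 CPM. The 8 were 2.09 times as high as the 4 by their means. Against all 12 NC libraries the sum fell by 0.62 with GATA1TSS and by 0.66 with eHDAC6 on the log2 scale (edgeR, adjusted p = 0.00113 and 0.000747). Against the 4 the values were 0.12 and 0.07, neither past the threshold, and against the 8 they were -0.86 and -0.90. The 4 NC sgRNAs themselves differed in the CT45 sum (edgeR, adjusted p = 0.0167).

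Each of the 6 CT45 rows followed the sum. Their log2 fold changes lay between -0.66 and -0.60 with GATA1TSS and between -0.73 and -0.60 with eHDAC6. CT45A10, the row with the largest share of its own words at 29.4%, was at 15.6 to 20.5 CPM in the 8 NC libraries and 9.04 to 9.75 CPM in the 4, and at 8.57 to 11.6 CPM with GATA1TSS and 7.01 to 11.4 CPM with eHDAC6. CT45A1 fell by 0.63 and 0.64, CT45A3 by 0.61 and 0.60, CT45A4 by 0.65 and 0.63, CT45A6 by 0.66 and 0.65 and CT45A7 by 0.61 and 0.65, with GATA1TSS and eHDAC6 in that order. No CT45 row passed the test against the 4.

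The summed GAGE level was 3295, 3345 and 3497 CPM in the libraries of NC-Guide1, 4435, 4278 and 3779 CPM in those of NC-Guide2, 4211, 2973 and 2432 CPM in those of NC-Guide3 and 3272, 2967 and 2866 CPM in those of NC-Guide4. It was 2813 ± 282 CPM (n = 3) with GATA1TSS-Guide1, 3175 ± 350.2 CPM (n = 3) with GATA1TSS-Guide2, 2676 ± 218 CPM (n = 3) with eHDAC6-Guide1 and 2776 ± 219 CPM (n = 3) with eHDAC6-Guide2. The 8 NC libraries, at 3272 to 4435 CPM, all lay above the 4, at 2432 to 2973 CPM, and their means differed 1.34 times. Because GAGE rows share reads, this sum counts some reads more than once.

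Against all 12 NC libraries the GAGE sum fell with eHDAC6 by 0.32 on the log2 scale (edgeR, adjusted p = 0.00314), and its value with GATA1TSS was -0.20 (edgeR, adjusted p = 0.0639). The latter passed without NC-Guide3 replicate 3, GATA1TSS-Guide1 replicate 2 or GATA1TSS-Guide2 replicate 2, at -0.24, -0.24 and -0.25. Against the 4 the values were -0.04 and 0.09, neither past the threshold, and against the 8 they were -0.43 and -0.30. GAGE8, whose row holds the counts of GAGE2A and GAGE2E together, fell with eHDAC6 by 0.33, from 638 ± 113 CPM (n = 12) to 505 ± 38.05 CPM (n = 6) (edgeR, adjusted p = 0.00319). GAGE2A and GAGE12J also fell by 0.33 with eHDAC6, GAGE2B fell by 0.37 and GAGE1 by 0.28.

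With GATA1TSS 4 GAGE rows passed the test, GAGE10 at -0.29 and GAGE12B, GAGE12F and GAGE12G at -0.23, the last 3 named after their values were seen. The call of GAGE10 was lost without any 1 of 7 libraries, at -0.29 to -0.24. Leaving out 1 library moved the number of members called lower with GATA1TSS from 11 to between 5, without GATA1TSS-Guide2 replicate 1, and 24, without NC-Guide3 replicate 3 or GATA1TSS-Guide2 replicate 2. It was 6 without GATA1TSS-Guide1 replicate 1 and 7 without GATA1TSS-Guide2 replicate 3. Among the 4 NC sgRNAs, 11 of the 63 members differed (17.5%, against 12.3% of all genes), of which 6 were GAGE rows, 4 were CT45 rows and the last was SSX2IP. In all, 22 members were higher in every one of the 8 NC libraries than in every one of the 4 (background 5.6%), and 4 were lower in every one (background 6.34%), while 37 overlapped. The 22 were 16 GAGE rows, all but GAGE1, and the 6 CT45 rows, some of which share reads. The 4 that were lower were SSX2B, MAGEC1, MAGEA9 and MAGEA9B.

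**Figure D4:**
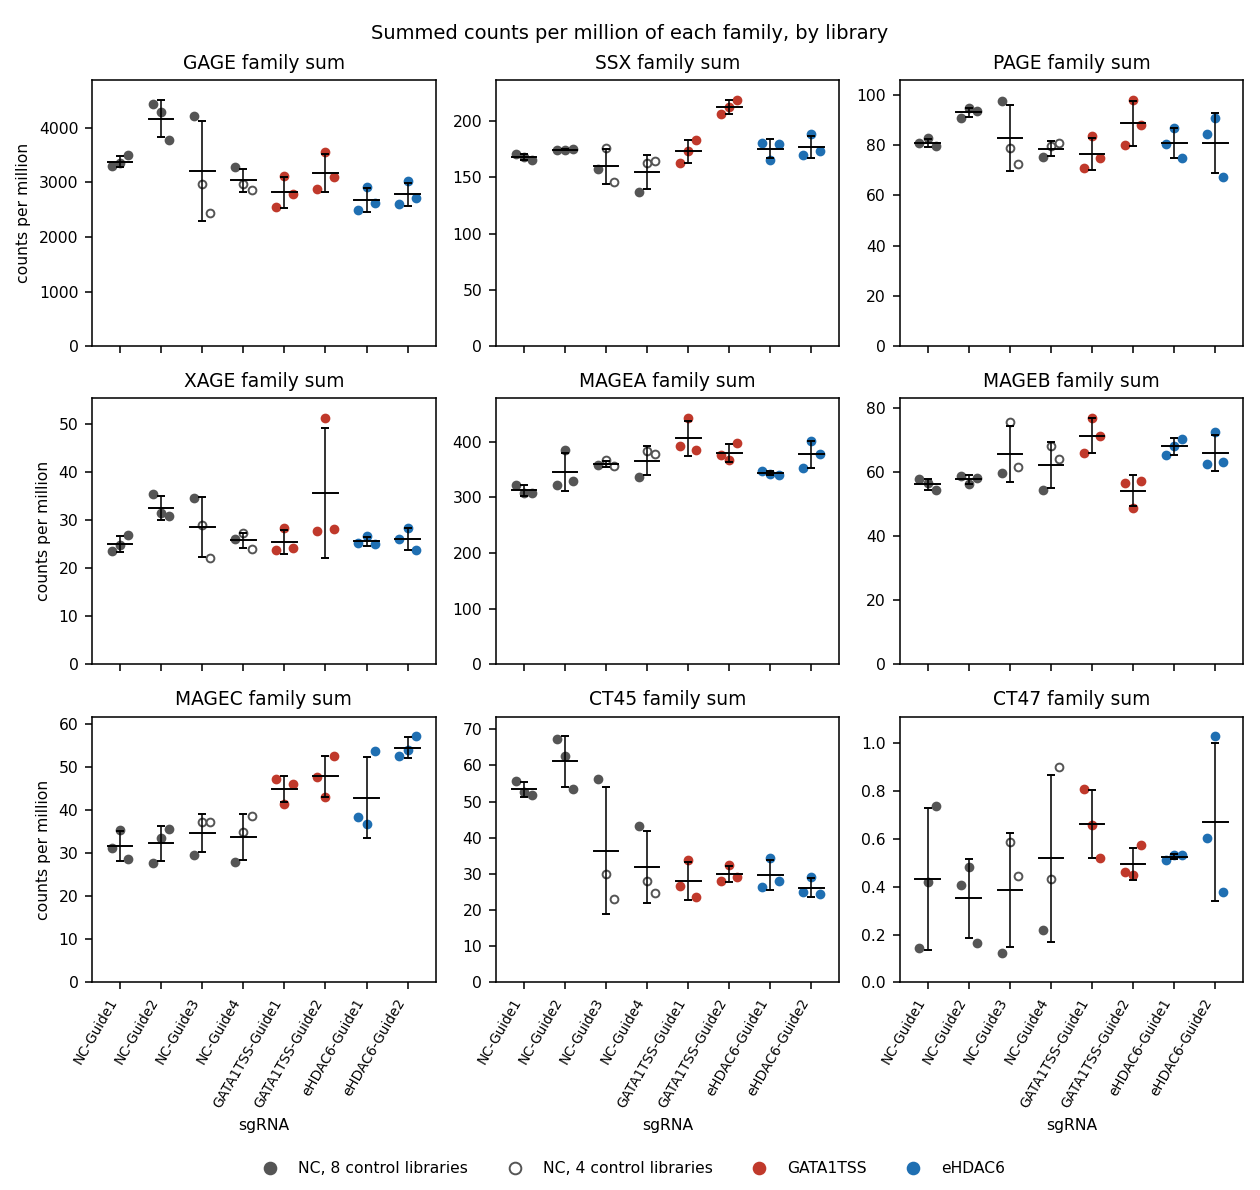
Summed CPM of each family in each library (points, open for the 4 NC libraries that stand apart), with the mean and SD of each sgRNA (lines and bars). The open CT45 points, at 23.1 to 30.0 CPM, lie among the targeted libraries and below the other NC libraries, and all GATA1TSS points of MAGEC, at 41.5 CPM or more, lie above every NC point.

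PAGE, XAGE and CT47 sums passed the test in neither comparison with all 12 NC libraries. The PAGE sum was 83.8 ± 8.20 CPM (n = 12) with NC, 82.6 ± 9.63 (n = 6) with GATA1TSS and 80.8 ± 8.53 (n = 6) with eHDAC6. PAGE1 was at 6.89 ± 1.27 CPM (n = 12) with NC and 9.21 ± 1.54 (n = 6) with GATA1TSS, a rise of 0.41 on the log2 scale (edgeR, adjusted p = 0.00639). Without GATA1TSS-Guide2 replicate 3 it was 0.33 (edgeR, adjusted p = 0.0505). Its value was 0.38 against the 4 (edgeR, adjusted p = 0.102) and 0.13 with eHDAC6 (edgeR, adjusted p = 0.404).

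PAGE5 was at 63.0, 57.9 and 58.9 CPM with NC, GATA1TSS and eHDAC6, PAGE2 at 4.75, 5.16 and 4.68 CPM and PAGE2B at 6.61, 7.66 and 7.67 CPM. PAGE4, a disordered protein first known from the prostate, was at 2.56, 2.59 and 1.96 CPM. None of the 4 passed the test in either comparison. XAGE was represented by 1 pair of identical rows, XAGE1E and XAGE1B, at 28.0 ± 4.33 CPM (n = 12) with NC, 30.6 ± 10.3 (n = 6) with GATA1TSS and 25.9 ± 1.58 (n = 6) with eHDAC6. One GATA1TSS library, Guide2 replicate 2, stood at 51.2 CPM, with the next at 28.4 CPM. CT47A6 was at 0.422 ± 0.240 CPM (n = 12), 0.578 ± 0.136 (n = 6) and 0.597 ± 0.224 (n = 6), and its log2 fold changes of 0.43 and 0.46 did not pass the test. Against the 8 NC libraries they were 1.14 and 1.17 (edgeR, adjusted p = 0.0399 and 0.0374), and against the 4 they were -0.02 and 0 (edgeR, adjusted p = 0.984 and 0.998).

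Between the elements, eHDAC6 against GATA1TSS, no member and no family sum was called by edgeR and no member by DESeq2, beside 0.875% of all genes higher and 0.654% lower. The smallest adjusted p of a member was 0.155, for MAGEA12 at -0.17, and 6 of the 63 had an unadjusted p below 0.05. The family differences were -0.13 (SE 0.09) for GAGE, -0.12 (SE 0.06) for SSX, -0.12 (SE 0.05) for MAGEA, 0.11 (SE 0.07) for MAGEB, 0.06 (SE 0.09) for MAGEC and -0.04 (SE 0.16) for CT45. Between the eHDAC6 sgRNAs no member was called by edgeR, beside 0.0152% of all genes, and 5 of the 63 had an unadjusted p below 0.05. RNA from bulk cultures cannot tell fewer cells that express a gene from less of its RNA in each cell.

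Genes of related lists were tested in the same fits. Of 6 type II MAGE genes tested, which are expressed outside the germ line, MAGEH1 fell with GATA1TSS by 0.28 (edgeR, adjusted p = 0.0172) and none passed with eHDAC6. Of all genes tested against the 12, 13.5% were called higher and 13.7% lower with GATA1TSS, and 15.8% and 15.3% with eHDAC6. Of 20 other cancer-testis genes tested, GATA1TSS gave 2 rises and 1 fall, and eHDAC6 gave 5 rises and 2 falls. These counts were 3 and 1, and 0 and 0, against the 4 NC libraries. PASD1, a testis antigen known to repress the circadian CLOCK complex, was at 16.2 ± 2.41 CPM (n = 12) with NC, 29.6 ± 10.2 (n = 6) with GATA1TSS and 20.6 ± 3.25 (n = 6) with eHDAC6, and rose by log2 fold changes of 0.79 (edgeR, adjusted p = 9.44e-08) and 0.33 (edgeR, adjusted p = 0.00413). Against the 4 they were 0.82 and 0.36 (edgeR, adjusted p = 4.87e-06 and 0.0581). ARMC3 was lower by 0.92 and 0.96 on the fitted log2 scale, ZNF165 rose with eHDAC6 by 0.73 and PLAC1 by 0.51, and the last 2 were not called with GATA1TSS. Against the 4, ARMC3 was at -0.52 and -0.55 (edgeR, adjusted p = 0.529 and 0.612) and PLAC1 with eHDAC6 at 0.27 (edgeR, adjusted p = 0.572). ZNF165 turned to -0.23 with eHDAC6 (edgeR, adjusted p = 0.548) and was called lower with GATA1TSS by -0.60 (edgeR, adjusted p = 0.0198).

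Of 28 genes of DNA methylation and gene silencing, GATA1TSS gave 3 rises and 2 falls, and eHDAC6 gave 2 rises and 7 falls, with a median log2 fold change of 0 and -0.07. Against the 4 NC libraries the counts were 1 and 1 with GATA1TSS and 0 and 0 with eHDAC6. UHRF1, which guides the maintenance methyltransferase DNMT1 to replicated DNA, rose with GATA1TSS by 0.39, from 101 ± 14.2 CPM (n = 12) to 131 ± 10.7 (n = 6) (edgeR, adjusted p = 8.26e-06), and by 0.28 against the 4. DNMT3A, a methyltransferase that sets new methyl marks, fell by 0.50, from 37.0 ± 4.73 CPM (n = 12) to 26.5 ± 3.46 (n = 6) (edgeR, adjusted p = 3.78e-05), and by 0.31 against the 4. With eHDAC6, DNMT3A fell by 0.34, MGA, a subunit of a repressor complex of germ-line genes, by 0.32, and TET3, which oxidises methylcytosine, by 0.25, and none of them was called against the 4. EHMT2, a histone H3 methyltransferase, rose with eHDAC6 by 0.24, and its value against the 4 was 0.04 (edgeR, adjusted p = 0.825).

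Of 16 partners of MAGE and PRAME proteins, GATA1TSS gave 4 rises and 2 falls, and eHDAC6 gave 4 rises and 3 falls. The counts against the 4 NC libraries were 1 and 1, and 0 and 0. SSX2IP, already counted among the 63 members, is on this list too. It is among the falls with both elements, and is the fall with GATA1TSS against the 4. RARA, the retinoic acid receptor that PRAME is known to repress, rose by 0.49 and 0.41 (edgeR, adjusted p = 2.55e-05 and 3e-04). TRIM27, a ligase bound by MAGE proteins, rose by 0.28 and 0.42, and NSMCE1, a ligase subunit of the SMC5/6 complex, fell by 0.31 and 0.30. Against the 4 NC libraries none of these 3 was called. SS18, the fusion partner of SSX genes in synovial sarcoma, rose by 0.23 with GATA1TSS and by 0.20 against the 4 (edgeR, adjusted p = 0.000495 and 0.0148).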

How the data were processed

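The deposited table holds whole-number read counts per gene for 24 libraries of K562 cells, 3 per sgRNA. Per the submitters' processing notes, the build was hg19 and the tools named were TopHat2 2.0.8, Bowtie2 2.1.0, SAMtools 0.1.19 and Picard. How reads that map to several copies were counted is not given in the sources used here. Groups came from the sample titles. Replicates are labelled biological.

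Members and lists were chosen with earlier results of these data known. The test was that of edgeR (4.0.16, under R 4.3.3) with 1 coefficient per sgRNA, comparing the mean of the sgRNAs of each element. Its settings were filterByExpr with a minimum count of 10, a minimum total of 15 and a proportion of 0.7, TMM scaling and quasi-likelihood F tests. The principal components used log2 CPM with a prior count of 2. Adjusted p is Benjamini-Hochberg over all genes tested, with a threshold of 0.05. CPM are counts divided by the TMM-scaled library total and set to a common scale. Family sums were tested as rows that replace their members. TMM factors lay between 0.959 and 1.04. The test was checked on simulated counts.

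Named are GATA1, every distinct member of families with 8 or fewer, in larger families the 3 with the highest mean CPM and those with the extreme log2 fold changes, and up to 4 called genes of each related list by size of change. Alternatives were RLE scaling, DESeq2 1.42.0, no count filter, 1 coefficient per element, counts summed per sgRNA, 1 row per family, a replicate block, both control subsets, the subset as a model term, and leaving out each sgRNA or library. PRAME was not analysed here. Totals limit the precision of genes near 0.5 CPM. A further cell type marker list is not reported here.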

Additional observations from a re-analysis of the deposited data

Results flagged for a closer look

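In 12 of 144 groups of 4 to 10 libraries, 1 library stood far from the rest. The limit used is one that about 1 in 20 independent groups would pass by chance, and these groups are not independent, since the XAGE and CT47 sums repeat their only rows and rows of other families share reads. Of GATA1TSS-Guide2 replicate 2, the library with the lowest total, this held for the XAGE sum and its only row XAGE1E at 51.2 CPM, with the next library at 28.4 CPM, and for PAGE2B at 11.9 CPM, with the next at 7.58 CPM. The part of depth in these values was not tested. Of GATA1TSS-Guide1, replicate 1 stood low for SSX1 at 71.1 CPM, replicate 2 stood high for MAGEA3 at 92.5 CPM and for CT45A6 at 4.56 CPM, and replicate 3 stood low for CT45A3 at 1.299 CPM. Of eHDAC6-Guide1 replicate 2, MAGEB10 at 1.33 CPM and CT45A4 at 6.54 CPM stood high. Of eHDAC6-Guide2, replicate 2 stood high for the CT47 sum and its only row CT47A6 at 1.03 CPM, and replicate 3 for SSX5 at 5.58 CPM.

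The sgRNAs aimed at the GATA1 start site differed from each other, by a direct test of Guide2 against Guide1, in the SSX sum by 0.30 on the log2 scale (edgeR, adjusted p = 0.0346), in the MAGEB sum by -0.38 (edgeR, adjusted p = 0.029), in SSX6 by 0.61 (edgeR, adjusted p = 0.0254) and in SSX3 by 0.71 (edgeR, adjusted p = 0.00135).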

How the results depend on the processing

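RLE scaling and DESeq2 left all 53 log2 fold changes of families and named genes on the same side of the threshold with the same direction, and the absence of a count filter did so for 49. Against the 8 control libraries 48 stayed and 5 more passed. Against the 4, 22 stayed, 18 lost the threshold and 13 changed sign, and with a model term for the control subset these numbers were 12, 29 and 12. With counts summed per sgRNA 24 stayed, 27 lost the threshold and 2 changed sign. The cause of these shifts was not tested.

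Members called higher with GATA1TSS, 13 in the main test, numbered 3 with counts summed per sgRNA, 4 against the 4 controls, 0 with the subset term, 6 without the sgRNA GATA1TSS-Guide2 and 3 with 1 row per family. Leaving out 1 library gave 9 to 15. Those lower, 11, numbered 18 with no filter, 6 with 1 coefficient per element, 0 summed per sgRNA, 1 against the 4, 24 against the 8, 1 with the subset term and 1 with 1 row per family. Without NC-Guide1, NC-Guide2, NC-Guide3 or NC-Guide4 they numbered 7, 5, 24 and 23, without GATA1TSS-Guide1 or GATA1TSS-Guide2 5 and 4, and 5 to 24 when 1 library was left out.

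Members called higher with eHDAC6, 9, numbered 1 summed per sgRNA, 2 against the 4, 0 with the subset term, 3 without eHDAC6-Guide2, 1 with 1 row per family and 6 to 10 without 1 library. Those lower, 24, numbered 0 summed per sgRNA, 0 against the 4, 0 with the subset term, 6 without NC-Guide2, 4 without eHDAC6-Guide1, 2 with 1 row per family and 21 to 24 without 1 library. Between the elements 1 member was lower without GATA1TSS-Guide1, and leaving out 1 library gave 0 in each direction. With 1 row per family fewer rows are tested. Of these settings, the share of all genes called was taken only for the main test and both control subsets.

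Signs changed as follows on the log2 scale. Against the 4 controls and with the subset term, in that order, the GATA1TSS values were 0.09 and 0.08 for the GAGE sum, 0.07 and 0.06 for PAGE, -0.11 and -0.12 for MAGEB, 0.12 and 0.01 for CT45, -0.02 and -0.64 for CT47 and 0.09 and 0.02 for CT45A10, and GAGE10 was 0.04 against the 4. The eHDAC6 values were 0.06 and 0.05 for PAGE, 0.01 and 0.05 for XAGE, -0.04 and -0.01 for MAGEA and -0.01 and -0.01 for MAGEB, while CT45 was 0.07 and GAGE10 was 0.03 against the 4, and CT47 was -0.61 and SSX2B was -0.03 with the subset term. Summed per sgRNA, XAGE with GATA1TSS was -0.03 and PAGE between the elements was 0.01.

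Without GATA1TSS-Guide2 the differences of eHDAC6 minus GATA1TSS were 0.03 for SSX, 0.09 for PAGE, 0.03 for XAGE, -0.08 for MAGEB and -0.16 for CT47, and XAGE with GATA1TSS was -0.14. Without eHDAC6-Guide2 those differences were -0.11 for MAGEC, 0.04 for CT45 and -0.14 for CT47, and MAGEA with eHDAC6 was -0.01. Without GATA1TSS-Guide1, PAGE with GATA1TSS was 0.07 and MAGEB was -0.14, and without NC-Guide2 PAGE was 0.02. Leaving out 1 library gave ranges across 0 for PAGE of -0.07 to 0.01 with GATA1TSS, -0.10 to 0.01 with eHDAC6 and -0.06 to 0.04 between the elements, for XAGE with GATA1TSS of -0.07 to 0.16, and between the elements of -0.04 to 0.11 for MAGEC, -0.11 to 0.03 for CT45 and -0.19 to 0.17 for CT47.

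Deviations of libraries with the same replicate number correlated at -0.197 to 0.431 over 84 pairs (median 0.0158). Those with different numbers correlated at -0.308 to 0.251 over 168 pairs (median -0.00592). Of the 24 libraries, 9 were closest to their own number. Within every targeted sgRNA, replicate 2 was highest in the GAGE, PAGE, XAGE and CT45 sums. This was not so in the SSX, MAGEA, MAGEB, MAGEC and CT47 sums, nor within every NC sgRNA. The part of the replicate number in this order was not tested. With the number as a replicate block, 14 members were higher and 11 lower with GATA1TSS, 10 and 24 with eHDAC6 and 0 and 0 between the elements, and the eHDAC6 value of the MAGEB sum, 0.15, passed the threshold (edgeR, adjusted p = 0.0436). Some rows of GAGE, CT45, MAGEA and SSX share reads, and CT47 lies near 0.5 CPM, where depth limits precision.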
